A study of Mus musculus with 8 samples.

Results

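Livers of male C57Bl/6J mice that drank arsenite on a low-fat diet were compared with livers of low-fat-fed mice on plain water. The LFD+As group ate a diet with 13% of its calories from fat and was given sodium arsenite in deionized water, 3 mg of inorganic arsenic to the litre. The LFD group ate the same diet and drank deionized water alone. The labels' protocols give 10 weeks of exposure and the source label gives 90 days, a difference that was not resolved. These groups hold 4 of the study's 8 arrays, 2 per group, and were taken by their labels. The other 4 arrays come from HFD+As and HFD mice, which ate a diet with 42% of its calories from fat and drank the same arsenite water or plain water. Every array measured a pool of RNA from 5 livers, so each group of 10 mice gave 2 pools, called pool 1 and pool 2 here. All p-values measure the spread between pools, not between mice. In whole liver, fewer cells of a type and less RNA per cell cannot be told apart.

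Arsenite is taken up by hepatocytes, bound by protein thiols, methylated by As3mt with S-adenosylmethionine and exported in part as glutathione conjugates. In cell culture, trivalent arsenic is known for inducing metallothioneins, heme oxygenase 1, heat shock proteins and chaperones of the endoplasmic reticulum. The liver also answers cytokines such as interleukin 6 with acute phase proteins, answers interferons with antiviral genes, and answers pulses of pituitary growth hormone through the kinase JAK2 and the transcription factor STAT5. Socs2 and Cish are feedback inhibitors in that growth hormone pathway.

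Of 35556 transcript clusters on the array, 21789 carried 1 gene symbol and stood for 19938 genes. The 11963 genes with the highest mean signals were tested. Array medians of all clusters lay between 7.08 and 7.18 log2 units. Signals of the LFD+As pools correlated at r = 0.9952 across genes and those of the LFD pools at 0.9922; genes are not independent replicates. LFD pool 1 correlated at 0.9935 and 0.9946 with the LFD+As pools, above its correlation with LFD pool 2. The median distance between pools of a group was 0.09 log2 units in LFD+As and 0.15 in LFD. Hepatocyte markers such as Alb and Ttr are in the labelled tissue's list; their 12 measured members summed to a linear signal of 136700 and 138800 in the LFD+As pools, against 138500 and 139300 in the LFD pools.

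Of the 11963 genes tested with limma, 3 rose (0.0251%) and 5 fell (0.0418%) in LFD+As against LFD at an adjusted p of 0.05. At an unadjusted p under 0.05 stood 401 genes, 213 of them higher (1.78%) and 188 lower (1.57%). With no difference in any gene, a share of 0.05 would fall under this p on average, more than was found. The pools did not overlap between the groups for 1522 genes higher in LFD+As (12.7%) and 1896 lower (15.8%). Differences were positive for 47.5% of genes, with a median of -0.01 log2 units and 90% of genes between -0.20 and 0.20. At least 1.5-fold higher were 29 genes and at least 1.5-fold lower were 28. The calls depended on single pools. Without LFD pool 1 none of the 8 calls stood, 0 genes were called and 679 had an unadjusted p under 0.05, and without LFD+As pool 1 Socs2 alone was called. Without LFD+As pool 2 the count was 26, with 6 of the 8 genes, and without LFD pool 2 it was 7, with 3 of them.

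**Figure D1:**
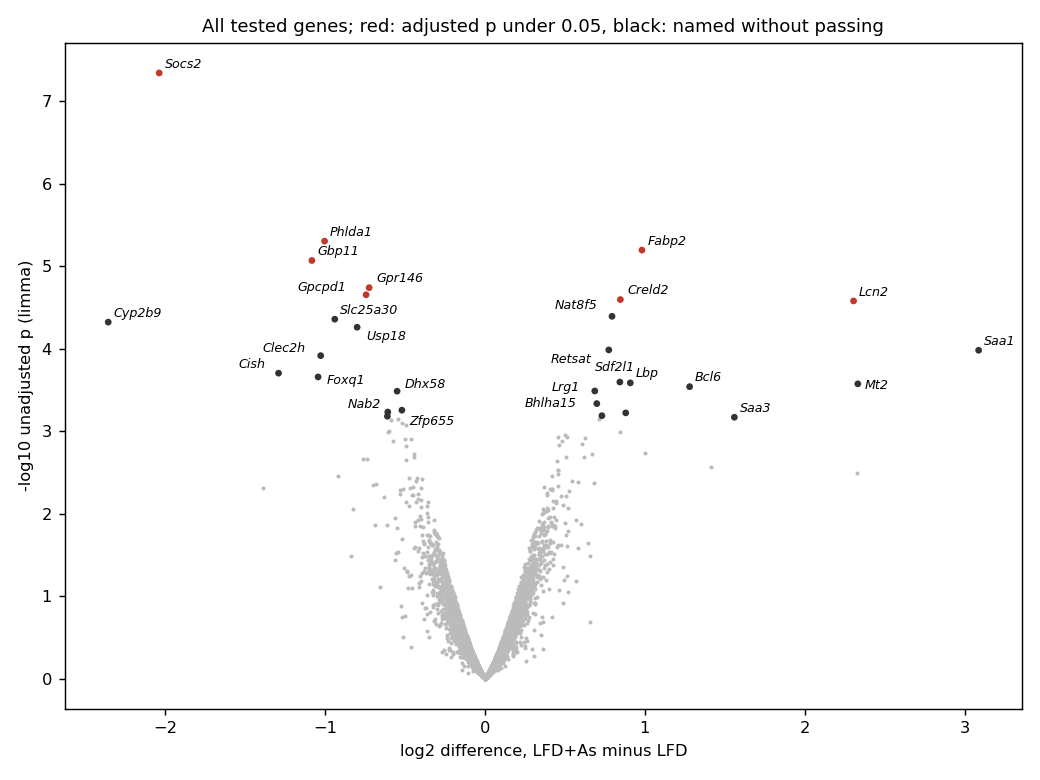
Log2 difference of LFD+As minus LFD (horizontal) against -log10 of limma's unadjusted p (vertical) for all 11963 tested genes. The 8 genes past an adjusted p of 0.05 are red and other named genes are black; Socs2 stands highest on the left, and Saa1, Mt2, Saa2 and Lcn2 lie farthest to the right.

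The largest of the called falls was that of Socs2 (chromosome 10, 95383903 to 95417321 in GRCm38.p6), a suppressor of cytokine signalling that STAT5 induces after growth hormone. Its log2 signal was 8.51 and 7.82 in the LFD+As pools, against 10.14 and 10.27 in the LFD pools. Both LFD+As pools lay below both LFD pools, by more than the distance between pools of either group. The difference was -2.04 (SE 0.185, n = 2 pools each), or 4.11-fold lower, with limma's adjusted p = 0.000546. Leaving out single pools moved it between -2.38 and -1.69. Phlda1 (chromosome 10, 111506286 to 111508649) encodes a pleckstrin homology-like protein induced by growth factors. It had 9.13 and 9.01 in LFD+As pools, against 10.23 and 9.93 in LFD pools, with no overlap, and was 2.01-fold lower (log2 difference -1.004, SE 0.14, adjusted p = 0.0256).

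Gbp11 (chromosome 5, 105323026 to 105346476) belongs to the guanylate-binding proteins, GTPases that interferons induce. Its signal was 7.82 and 8.22 in LFD+As pools, against 9.07 and 9.13 in LFD pools. The LFD+As pools were both lower, and the difference was -1.08 (SE 0.16, adjusted p = 0.0256). Gbp genes are a cluster of similar sequences, so its probes may pick up related transcripts. Gpr146 (chromosome 5, 139377697 to 139396415), an orphan G protein-coupled receptor that mouse studies link to plasma cholesterol, had 9.67 and 9.70 in LFD+As pools, against 10.45 and 10.37 in LFD pools. Its pools were close within each group, and the difference was -0.72 (SE 0.11, adjusted p = 0.0396). Gpcpd1 (chromosome 2, 132529082 to 132578248), which splits glycerophosphocholine to free choline, had 9.34 in both LFD+As pools, against 10.07 and 10.10 in LFD pools. It was 1.67-fold lower (log2 difference -0.74, SE 0.12, adjusted p = 0.0396), and leaving out single pools kept this between -0.76 and -0.73.

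Among the 3 genes that rose, Lcn2 (chromosome 2, 32384637 to 32387739 in GRCm38.p6) had the largest difference. Lipocalin 2 binds bacterial iron carriers and is an acute phase protein of hepatocytes. Its signal was 12.55 and 11.40 in LFD+As pools, against 9.05 and 10.28 in LFD pools. The groups did not overlap, but pools of the same group differed by more than 1 log2 unit. The difference was 2.31 (SE 0.37, adjusted p = 0.0396), or 4.94-fold higher. It was 1.69 without LFD pool 1, where its adjusted p was 0.656, and 2.92 without LFD pool 2.

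Fabp2 (chromosome 3, 122895072 to 122899506) encodes the intestinal fatty acid-binding protein. It had 11.12 and 11.14 in LFD+As pools, against 10.29 and 10.01 in LFD pools. Both LFD+As pools were higher, by 0.98 on average (SE 0.14, adjusted p = 0.0256), or 1.97-fold. Creld2 (chromosome 15, 88819646 to 88826681), a protein of the endoplasmic reticulum induced when unfolded proteins gather there, had 12.30 and 12.00 in LFD+As pools, against 11.36 and 11.25 in LFD pools. The groups were separate, and it was 1.80-fold higher (log2 difference 0.85, SE 0.13, adjusted p = 0.0396).

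In several of these genes the pools of high-fat-fed mice lay nearer to LFD+As than to LFD. Gpcpd1 had 9.43 and 9.35 in HFD+As pools and 9.48 and 9.26 in HFD pools. Creld2 had 12.15 and 12.25 in HFD+As pools and 12.25 and 12.00 in HFD pools. Lcn2 had 11.57 and 12.06 in HFD+As pools and 12.49 and 12.97 in HFD pools. These 3 genes were picked out after their values were seen. In each of the 8 called genes the LFD pools stood apart from all 6 other pools, the HFD pools without arsenite included. Their separation from the LFD+As pools is what the calls measured. Any comparison of another group with LFD shares those LFD pools.

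**Figure D2:**
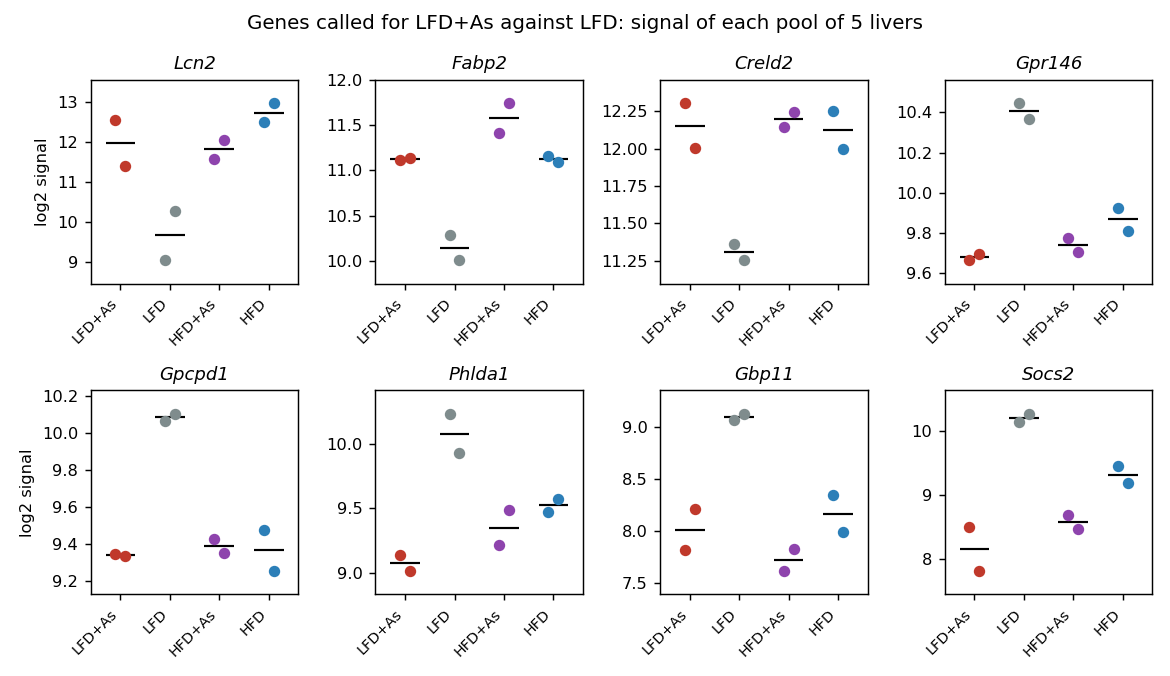
Log2 signal of the 8 called genes in each pool of 5 livers (points) with the mean of each group (line), for LFD+As, LFD, HFD+As and HFD. The LFD+As and LFD points do not overlap in any panel; the LFD pools of Lcn2, at 9.05 and 10.28, are the most spread of the 8 genes in that group.

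Several genes that missed the threshold, by little or by much, are given by values alone. Nat8f5, of the Nat8 family of acetyltransferases, had 10.45 and 10.39 in LFD+As pools, against 9.68 and 9.58 in LFD pools. Its difference was 0.79 with an adjusted p of 0.0521, the same adjusted p as Slc25a30 and Cyp2b9, and on the high-fat diet it rose (difference 0.69, adjusted p = 0.0268). Slc25a30, a mitochondrial carrier, had 9.03 and 8.81 in LFD+As pools, against 9.64 and 10.08 in LFD pools. Cyp2b9, a cytochrome P450 that is more abundant in female mouse liver, had 6.21 and 7.20 in LFD+As pools, against 9.91 and 8.22 in LFD pools. Its pools differed widely within both groups, and the log2 difference of -2.36 was -1.51 without LFD pool 1. The means of Cyp2b9 in LFD+As, HFD+As and HFD were 6.71, 6.68 and 6.85, below the filter's 6.975. It was therefore tested only because of its high LFD pools, and its signal was dim in the other groups. The C-type lectin gene Clec2h and the forkhead gene Foxq1 had differences of -1.03 (adjusted p = 0.097) and -1.04 (adjusted p = 0.156). Retsat, retinol saturase, had a difference of 0.77 (adjusted p = 0.0898), while Cyp26a1, which degrades retinoic acid, had -0.92 (adjusted p = 0.638). Of 20 tested genes of retinoid metabolism, 7 differences were positive and the median was -0.04.

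Of 19 tested members of the growth hormone list, 5 had positive differences, and the median was -0.09. Socs2 alone fell past the test, beside 0.0418% of all tested genes. Pools of 8 of the 19 lay wholly lower in LFD+As and 1 wholly higher, which was Bcl6, beside 15.8% and 12.7% of all tested genes. Cish, the other STAT5-induced feedback inhibitor, had 7.82 and 7.37 in LFD+As pools, against 8.97 and 8.81 in LFD pools. Its LFD+As pools were both lower, the difference was -1.29 (SE 0.25), and the adjusted p of 0.149 missed the threshold. Bcl6 encodes a repressor that binds many STAT5 sites in mouse liver. It had 9.54 and 9.95 in LFD+As pools, against 8.53 and 8.39 in LFD pools, a difference of 1.28 (adjusted p = 0.165) with both LFD+As pools higher.

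Onecut1, the liver transcription factor HNF6, had 10.07 and 8.82 in LFD+As pools, against 10.65 and 11.03 in LFD pools. The difference was -1.39 (adjusted p = 0.707), and the LFD+As pools differed from each other by nearly as much. Igf1, the circulating growth factor that growth hormone drives in hepatocytes, had 12.71 and 12.72 in LFD+As pools, against 12.80 and 12.82 in LFD pools. That is a difference of -0.09 with an interval of -0.32 to 0.14. Many sex-biased liver genes depend on the growth hormone pattern. Of 19 tested male-biased genes 14 were positive, 6 had pools wholly higher and 1 wholly lower (median 0.09), beside 47.5%, 12.7% and 15.8% of all tested genes. Of 11 female-biased genes 4 were positive, with 1 wholly higher and 1 wholly lower (median -0.01).

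The Cish promoter is printed because it holds the STAT motif, TTCNNNGAA, more than once at its start. It comes from RefSeq (GRCm38.p6, chr9:107296409-107296708, plus strand), runs from 250 bases before the start to 50 bases after it, and has its matches in capitals.
Cish: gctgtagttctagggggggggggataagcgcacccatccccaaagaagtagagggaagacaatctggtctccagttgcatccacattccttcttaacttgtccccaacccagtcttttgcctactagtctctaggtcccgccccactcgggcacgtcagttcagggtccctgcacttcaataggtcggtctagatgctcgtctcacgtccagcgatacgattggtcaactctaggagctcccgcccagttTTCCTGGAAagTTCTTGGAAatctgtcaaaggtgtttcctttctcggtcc
The 2 matches begin at 0 and 11 bases from the start, and 1 match to the heat shock motif GAANNTTC lies across the gap and overlaps both. The STAT motif stood in 8.30% of all 32851 RefSeq promoters of this length and in 7.99% of 9565 tested genes with a promoter. It stood in 4 of 16 growth hormone genes with one (25.0%) and in 6 of 16 genes of other acute phase proteins (37.5%). A match is a run of letters and was not tested for binding.

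Chaperones and quality-control genes of the endoplasmic reticulum lay higher in LFD+As as a list. Of 25 tested members, 23 had positive differences, beside 47.5% of all tested genes, and 19 had pools wholly higher, beside 12.7%. The list's median was 0.34, beside -0.01 for all tested genes. Creld2 rose past the test, beside 0.0251% of all tested genes. At an unadjusted p under 0.05, 12 members were higher and 1 lower, beside 1.78% and 1.57% of all tested genes. Sdf2l1, a partner of the chaperone BiP, had 12.17 and 11.87 in LFD+As pools, against 11.23 and 11.12 in LFD pools. Both LFD+As pools were higher, by 0.84 (SE 0.17, adjusted p = 0.160). Manf, a secreted factor kept in the endoplasmic reticulum, differed by 0.48 (adjusted p = 0.346), and Dnajb9, a cochaperone, by 0.61 (adjusted p = 0.366). Bhlha15, a transcription factor of secretory cells outside this list, differed by 0.70 (adjusted p = 0.232).

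Only 2 of the 25 members, Ern1 and Xbp1, had pools wholly lower in LFD+As, beside 15.8% of all tested genes. They were picked out after their values were seen. The list covers the ATF6 and XBP1 arms, with 19 members wholly higher, so these 2 genes do not show that a branch fell. Ern1 encodes the sensor IRE1 and had 10.03 and 10.09 in LFD+As pools, against 10.11 and 10.45 in LFD pools. Xbp1, whose RNA that sensor splices, had 12.47 and 12.27 in LFD+As pools, against 12.68 and 12.61 in LFD pools, a difference of -0.27 with an unadjusted p of 0.0353. A cluster signal does not tell spliced from unspliced Xbp1. The related list of the PERK and ATF4 branch had 9 of 17 positive differences and a median of 0.06. In it Ddit3, the transcription factor CHOP, differed by 0.37 and Atf3 by 0.28, while Chac1, which degrades glutathione, differed by -0.26, each with an adjusted p of 1. Leaving out LFD+As pool 1 lowered the chaperone median to 0.21, and leaving out LFD+As pool 2 gave 0.40.

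The promoters of Creld2 and Sdf2l1 are shown since both hold CCACG together with CCAAT, which together make up the response element for unfolded proteins. Both are from RefSeq, GRCm38.p6, with both letter runs in capitals on either strand: Creld2 at chr15:88819396-88819695 on the plus strand and Sdf2l1 at chr16:17132334-17132633 on the minus strand.
Creld2: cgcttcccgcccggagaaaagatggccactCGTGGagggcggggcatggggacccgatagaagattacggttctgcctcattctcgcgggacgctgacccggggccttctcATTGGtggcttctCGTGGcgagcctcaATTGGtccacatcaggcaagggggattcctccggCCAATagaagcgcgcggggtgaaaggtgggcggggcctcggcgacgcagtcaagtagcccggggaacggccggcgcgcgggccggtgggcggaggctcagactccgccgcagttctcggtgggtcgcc
Sdf2l1: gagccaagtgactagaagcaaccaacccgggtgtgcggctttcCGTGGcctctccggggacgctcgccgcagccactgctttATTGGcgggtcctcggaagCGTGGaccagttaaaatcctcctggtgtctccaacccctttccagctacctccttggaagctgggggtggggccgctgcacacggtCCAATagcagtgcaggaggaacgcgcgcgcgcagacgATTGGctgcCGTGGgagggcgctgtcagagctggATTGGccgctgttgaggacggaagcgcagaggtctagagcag
Creld2 had 5 matches, the nearest of them beginning 78 bases before the start, and Sdf2l1 had 7. The spacing between them was not required. Both letter runs together stood in 11.73% of all promoters, in 19.54% of tested genes with a promoter and in 17 of 21 genes of the chaperone list (80.95%). No match overlapped another.

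Heat shock proteins of the cytosol and mitochondria were also placed higher in LFD+As. Of 19 tested members, 10 had pools wholly higher, beside 12.7% of all tested genes. Differences were positive for 17 of the 19, and the median was 0.24. None passed limma's test and 6 had an unadjusted p under 0.05, all higher, beside 1.78% of all tested genes. Hspb1, the small heat shock protein HSP25, had 10.33 and 9.65 in LFD+As pools, against 9.15 and 9.06 in LFD pools. Both LFD+As pools were higher, the difference was 0.88 (SE 0.20) and the adjusted p was 0.267. Dnajb1 differed by 0.48 (adjusted p = 0.767), and Hsph1 and Chordc1, which assist HSP70 and HSP90, by 0.40 and 0.33 (adjusted p = 1 for both). Pool 1 of LFD+As carried more of this shift: the list's median was 0.10 without it and 0.31 without LFD+As pool 2.

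Metallothioneins are small cysteine-rich proteins that bind zinc, cadmium and arsenite, and Mt1 and Mt2 are their main liver forms. Mt2 had 13.24 and 11.09 in LFD+As pools, against 10.09 and 9.59 in LFD pools. The groups did not overlap, yet LFD+As pool 1 exceeded pool 2 by over 2 log2 units. The difference was 2.33 (SE 0.48), 5.04-fold, with an adjusted p of 0.160. Mt1 had 11.10 and 9.38 in LFD+As pools, against 9.02 and 8.65 in LFD pools, a difference of 1.41 (adjusted p = 0.549). Without LFD+As pool 1 the differences were 1.26 for Mt2 and 0.55 for Mt1. Mt3, the form known from brain and named here after its values were seen, had 8.58 and 8.40 in LFD+As pools, against 8.42 and 8.80 in LFD pools. Its groups overlapped, with a difference of -0.12 (adjusted p = 1). Of 11 tested genes of metallothioneins and zinc transport, 9 were positive, with a median of 0.15. Pools of 5 lay wholly higher, beside 12.7% of all tested genes. The zinc transporter Slc30a5 differed by 0.43 (adjusted p = 1).

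Mt2 and Hspb1 were also compared on the high-fat diet. Mt2 had 13.43 and 12.51 in HFD+As pools, against 12.74 and 12.78 in HFD pools, a difference of 0.21 (adjusted p = 0.816). Hspb1 had 10.74 and 10.49 in HFD+As pools, against 9.87 and 9.43 in HFD pools, a difference of 0.97 (adjusted p = 0.0288), so the HFD+As pools stood above both HFD pools and the gene rose there. The difference between the arsenite effects of the diets did not pass limma's test for either gene (Mt2 adjusted p = 0.252, Hspb1 adjusted p = 0.899).

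Promoters of Mt2 and Hspb1 are given because the motifs known for these stress genes stand in them. The metal response core was searched as TGCACNC or TGCGCNC and the heat shock motif as GAANNTTC, on both strands, and the matches are in capitals. Both are RefSeq sequences of GRCm38.p6 on the plus strand, Mt2 at chr8:94172368-94172667 and Hspb1 at chr5:135887669-135887968.
Mt2: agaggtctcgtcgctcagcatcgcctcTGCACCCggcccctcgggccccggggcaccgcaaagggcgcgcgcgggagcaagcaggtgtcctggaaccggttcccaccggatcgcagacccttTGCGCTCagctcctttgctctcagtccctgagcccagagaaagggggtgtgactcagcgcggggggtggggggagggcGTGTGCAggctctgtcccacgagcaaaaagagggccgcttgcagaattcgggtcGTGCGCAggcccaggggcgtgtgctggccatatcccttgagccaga
Hspb1: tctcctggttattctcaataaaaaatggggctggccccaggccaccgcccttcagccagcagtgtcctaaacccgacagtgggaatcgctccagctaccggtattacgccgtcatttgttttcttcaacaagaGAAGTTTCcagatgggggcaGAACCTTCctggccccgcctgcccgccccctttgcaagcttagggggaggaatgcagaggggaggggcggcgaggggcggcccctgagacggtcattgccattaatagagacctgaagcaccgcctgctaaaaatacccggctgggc
Mt2 had 4 metal cores and Hspb1 had 2 heat shock matches, beginning 117 and 97 bases before the start, none of them overlapping. The metal core stood in 25.7% of all promoters, in 39.74% of tested genes with a promoter and in 6 of 9 genes of its list (66.67%). It also stood in 10 of 16 cell cycle genes with a promoter (62.5%). The heat shock motif stood in 7.86% of all promoters, in 6.95% of tested genes with a promoter and in 10 of 16 of the heat shock list (62.5%).

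**Figure D3:**
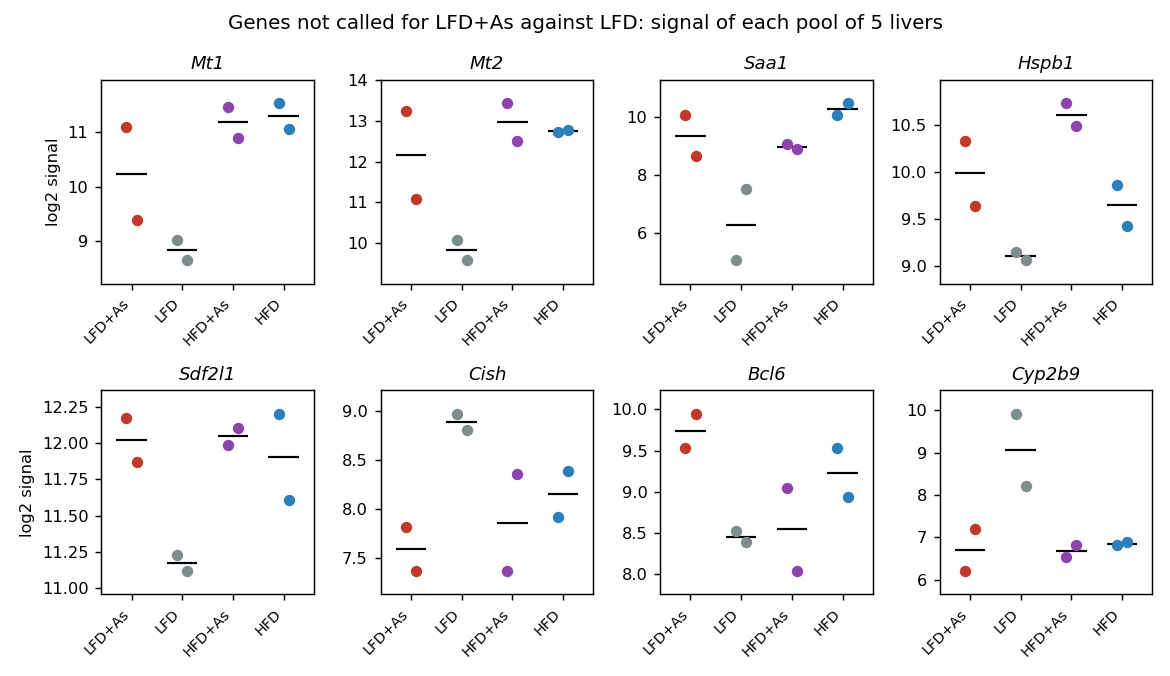
Log2 signal in each pool of 5 livers (points) with group means (lines) for 8 genes that did not pass the test for LFD+As against LFD, on separate vertical axes. LFD+As pool 1 of Mt2, at 13.24, and LFD pool 1 of Saa1, at 5.04, lie far from the other pool of their group.

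No gene of oxidant defence or arsenic handling passed limma's test, and 1 oxidant gene and 0 arsenic genes had an unadjusted p under 0.05. Over all tested genes, 1.78% were higher and 1.57% lower at that p. Hmox1, heme oxygenase 1, had 8.73 and 8.47 in LFD+As pools, against 8.31 and 8.19 in LFD pools. Both LFD+As pools were higher, by 0.35 with an interval of 0.05 to 0.65, and the adjusted p was 1. Nqo1, a quinone reductase and NRF2 target, had 7.79 and 7.42 in LFD+As pools, against 7.82 and 7.20 in LFD pools, which overlap. Of 22 tested NRF2 and glutathione genes, 14 were positive, 3 had pools wholly higher and 3 wholly lower, beside 12.7% and 15.8% of all tested genes, and the median was 0.04. Prdx1, a peroxiredoxin, differed by 0.18. As3mt, the arsenite methyltransferase, had 10.96 and 10.71 in LFD+As pools, against 10.76 and 10.55 in LFD pools. Its groups overlapped, and the difference of 0.18 had an interval of -0.17 to 0.52. Of 17 tested genes of arsenic uptake, methylation and efflux, 10 were positive, 2 had pools wholly higher and 6 wholly lower, beside the same shares of 12.7% and 15.8%, and the median was 0.01. Gss, glutathione synthetase, differed by 0.38, Gsto1, which reduces methylated arsenic, by -0.26, and Slc2a2, the glucose transporter GLUT2, by -0.25 (adjusted p = 1 each).

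The list of serum amyloid A, orosomucoid and lipocalin 2 had the largest median difference of the 43 lists. Other acute phase proteins form a separate list. The lists were chosen with earlier results of these data known, so this rank is only a description. All 8 tested genes of serum amyloid A, orosomucoid and lipocalin 2 had pools wholly higher in LFD+As, beside 12.7% of all tested genes. The list's median was 1.11, and Lcn2 passed the test, beside 0.0251% of all tested genes called higher. Saa1 had 10.07 and 8.66 in LFD+As pools, against 5.04 and 7.51 in LFD pools. The lowest of these, LFD pool 1, lay over 2 log2 units below LFD pool 2. The difference of 3.09 (SE 0.57), 8.50-fold, had an adjusted p of 0.0898. Saa2, nearly identical to Saa1 in sequence, had 13.54 and 12.60 in LFD+As pools, against 9.17 and 12.32 in LFD pools. Its LFD+As pool 2 and LFD pool 2 were close, and the adjusted p was 0.616. Saa3, which macrophages and adipocytes also make, had 9.28 and 8.68 in LFD+As pools, against 7.34 and 7.50 in LFD pools, a difference of 1.56 (adjusted p = 0.269). Without LFD pool 1 the list's median was 0.58, and it was 1.43 without LFD+As pool 2.

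Among 21 tested genes of other acute phase proteins, 20 were positive and the median was 0.19. Pools of 15 lay wholly higher, beside 12.7% of all tested genes. Lbp, the lipopolysaccharide-binding protein, had 12.11 and 11.77 in LFD+As pools, against 11.07 and 10.99 in LFD pools. Its pools did not overlap, and the difference was 0.91 (SE 0.18, adjusted p = 0.160). Lrg1, a leucine-rich glycoprotein of plasma, differed by 0.69 (adjusted p = 0.171; on the high-fat diet it fell, with a difference of -0.59) and Steap4, a metalloreductase, by 1.004 (adjusted p = 0.440). Proteins whose RNA drops in inflammation lay slightly lower: of 11 tested, 9 were negative and the median was -0.07. Of these, Serpina6, the corticosteroid-binding globulin, had 12.50 and 12.85 in LFD+As pools, against 13.16 and 13.18 in LFD pools (difference -0.50, adjusted p = 0.468).

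Upstream genes of this response were counted as a list. Of 25 tested genes of IL-6, IL-1 and STAT3 signalling, 17 were positive and the median was 0.08. Pools of 10 lay wholly higher and of 4 wholly lower, beside 12.7% and 15.8% of all tested genes. The chemokine Cxcl1 had 9.13 and 8.75 in LFD+As pools, against 8.02 and 8.40 in LFD pools, a difference of 0.73 (adjusted p = 0.269). Tnfaip3, which restrains NF-kB, differed by 0.62 (adjusted p = 0.340), the NF-kB inhibitor Nfkbia by 0.29 and the receptor Lifr by -0.44 (adjusted p = 1 for both). Neutrophil markers were mostly dim: only 4 of 14 measured members passed the filter on signal. The 14 summed to 1309 and 1246 in LFD+As pools, against 1177 and 1287 in LFD pools. With most members dim, these sums cannot show whether neutrophils differed. S100a9 had 6.99 and 6.93 in LFD+As pools, against 6.63 and 6.95 in LFD pools, which overlap. Macrophage markers summed to 12940 and 15280 in LFD+As pools, against 15090 and 14470 in LFD pools. The part of such cells in the acute phase differences was not tested.

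**Figure D4:**
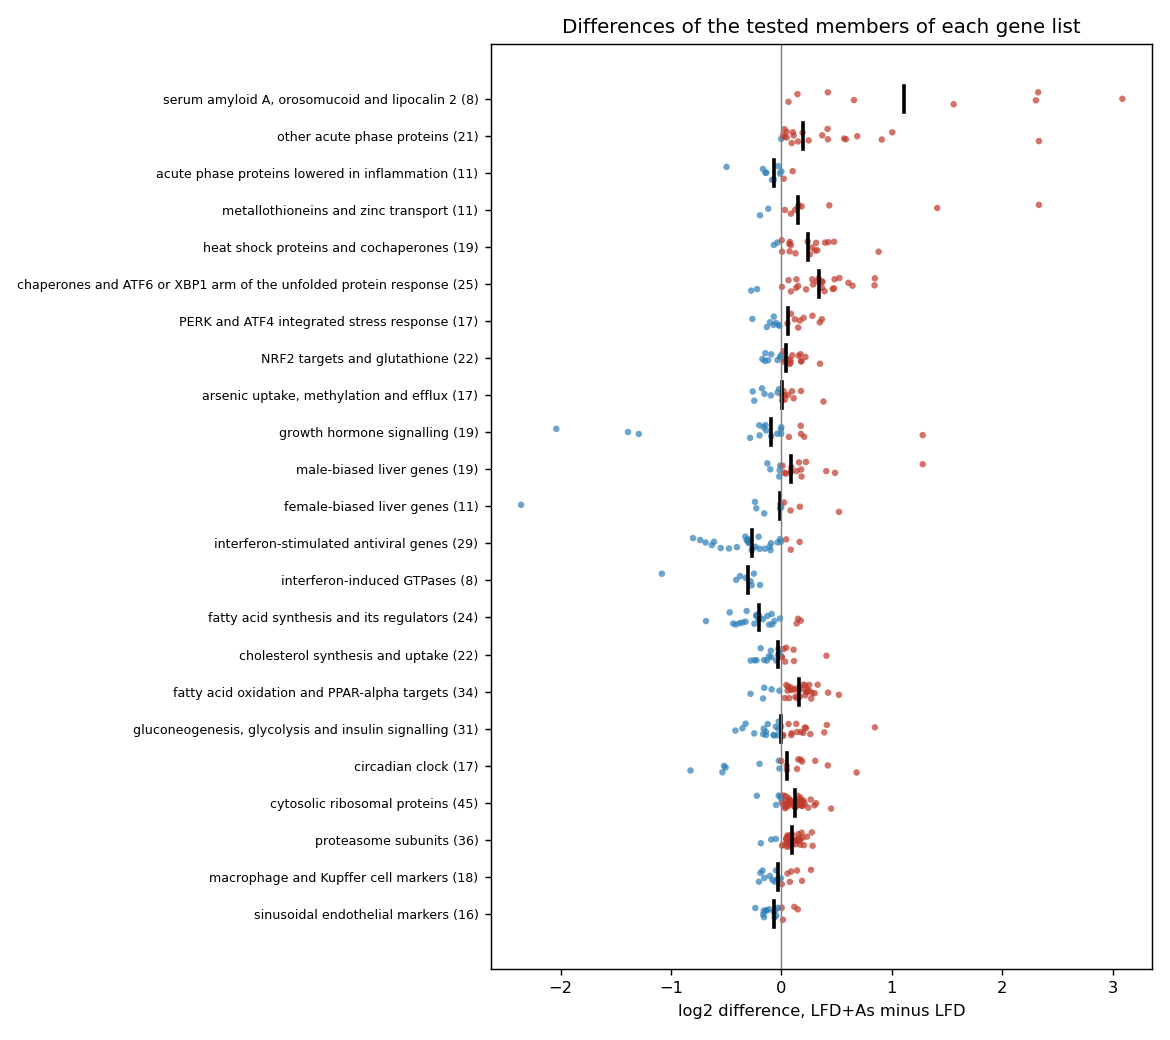
Log2 differences of LFD+As minus LFD for the tested members (points) of 23 gene lists, with each list's median as a black bar and the number of tested members in brackets. The serum amyloid A list has the highest median (1.11), the interferon-induced GTPases the lowest (-0.30), and most other medians lie near 0.

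Interferon-stimulated genes lay lower in LFD+As. Of 29 tested antiviral genes, 21 had pools wholly lower and 1 wholly higher, beside 15.8% and 12.7% of all tested genes. Negative differences were found for 26 of the 29, and the median was -0.27. None passed the test, and 11 had an unadjusted p under 0.05, all lower, beside 1.57% of all tested genes. Usp18, which removes ISG15 and dampens interferon signalling, had 8.43 and 8.47 in LFD+As pools, against 9.34 and 9.16 in LFD pools. Its pools were close within groups, and the difference of -0.80 (SE 0.14) had an adjusted p of 0.0551. Dhx58, the RNA sensor LGP2, had 8.15 and 8.23 in LFD+As pools, against 8.82 and 8.65 in LFD pools, a difference of -0.55 (adjusted p = 0.171). The helicase gene Ddx60 differed by -0.61 (adjusted p = 0.325) and Rsad2, the antiviral enzyme viperin, by -0.74 (adjusted p = 0.460).

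All 8 tested interferon-induced GTPases had negative differences, and the median was -0.30. Pools of 7 lay wholly lower, beside 15.8% of all tested genes. Gbp11 fell, beside 0.0418% of all tested genes. Gbp7 differed by -0.41 and Iigp1 by -0.37 (adjusted p = 1 for both). LFD pool 1 was the higher LFD pool for most of these genes. Without it the medians were -0.17 for the antiviral genes and -0.20 for the GTPases, and without LFD pool 2 they were -0.34 and -0.41. Of 17 measured lymphocyte markers only 7 passed the filter on signal, so most were dim. The 17 summed to 1892 and 1965 in LFD+As pools, against 2103 and 1951 in LFD pools, with LFD pool 1 the highest of the 4. Whether this difference has a part in the interferon genes was not tested.

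The Ddx60 promoter is shown as an example of the interferon motif GAAANNGAA, which it holds more than once just before the start. It is from RefSeq, GRCm38.p6, chr8:61927837-61928136, plus strand, with the matches in capitals.
Ddx60: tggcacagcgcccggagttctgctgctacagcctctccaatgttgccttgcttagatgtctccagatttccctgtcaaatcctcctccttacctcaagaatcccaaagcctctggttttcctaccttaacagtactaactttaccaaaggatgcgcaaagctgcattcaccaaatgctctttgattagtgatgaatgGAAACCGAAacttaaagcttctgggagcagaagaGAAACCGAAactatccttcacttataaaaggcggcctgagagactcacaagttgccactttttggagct
The 2 matches begin 53 and 19 bases before the start and overlap no other motif searched. The motif, on both strands, stood in 8.56% of all promoters, in 8.27% of tested genes with a promoter, in 11 of 21 antiviral genes with one (52.38%) and in all 3 GTPase genes with one.

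Genes of fatty acid synthesis lay lower and those of fatty acid oxidation higher, with small differences. No gene of either list was called by limma, while 4 synthesis genes lower, 7 oxidation genes higher and 1 oxidation gene lower had an unadjusted p under 0.05. Of 24 tested synthesis genes, 11 had pools wholly lower, beside 15.8% of all tested genes. Differences were negative for 21 of these synthesis genes, and the median was -0.20. Srebf1, the transcription factor that drives them, had 10.32 and 10.71 in LFD+As pools, against 11.01 and 10.96 in LFD pools, a difference of -0.47 (adjusted p = 0.707). Fasn, fatty acid synthase, had 12.32 and 12.85 in LFD+As pools, against 12.98 and 13.06 in LFD pools, a difference of -0.44 (adjusted p = 1). In both genes LFD+As pool 1 was the lowest of the 4. The desaturase gene Scd2 differed by -0.68 (adjusted p = 0.707) and Acaca, acetyl-CoA carboxylase, by -0.38 (adjusted p = 1). The list's median was -0.04 without LFD+As pool 1 and -0.36 without LFD+As pool 2.

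Of 34 tested genes of fatty acid oxidation and PPAR-alpha targets, 29 were positive and the median was 0.16. Pools of 17 lay wholly higher, beside 12.7% of all tested genes. Cyp4a14, a fatty acid hydroxylase, had 13.93 and 13.49 in LFD+As pools, against 13.35 and 13.03 in LFD pools, a difference of 0.52 (adjusted p = 0.911). Angptl4, an inhibitor of lipoprotein lipase, differed by 0.42 (adjusted p = 0.842), the carnitine carrier Slc25a20 by 0.33 and the reductase Decr1 by 0.30 (adjusted p = 1 for both). A single member, the thioesterase gene Acot2, had pools wholly lower, beside 15.8% of all tested genes. Its difference was -0.28, and it was picked out after its values were seen. Lipid storage genes had 11 of 26 positive and a median of -0.05. Fabp2 is the member that rose, beside 0.0251% of all tested genes, and Cidec, a lipid droplet protein, differed by 0.37. Cholesterol synthesis had 8 of 22 positive and a median of -0.03. Among bile acid genes 13 of 27 were positive, and Cyp7a1, the rate-limiting enzyme of bile acid synthesis, had 12.24 and 11.59 in LFD+As pools, against 11.84 and 11.81 in LFD pools. These overlap; Cyp8b1 and Cyp7b1, later enzymes of the pathway, differed by 0.39 and 0.41 (adjusted p = 1 for both).

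The lists of glucose, amino acid and cytochrome P450 genes held no gene called by limma, and 3, 0 and 1 of their genes were higher and 2, 2 and 1 lower at an unadjusted p under 0.05. Pck1, the enzyme that commits carbon to gluconeogenesis, had 11.88 and 12.25 in LFD+As pools, against 11.16 and 11.27 in LFD pools. Both LFD+As pools were higher, by 0.85 (SE 0.20, adjusted p = 0.325). The glucocorticoid-responsive genes Sgk1 and Tsc22d3 differed by 0.39 and 0.41, and Foxa2, a hepatocyte transcription factor, by -0.42 (adjusted p = 0.911 for Sgk1 and 1 for the others). Over the 31 tested glucose genes 15 were positive and the median was -0.0016. Amino acid catabolism had 23 of 32 negative, 12 with pools wholly lower and 3 wholly higher, beside 15.8% and 12.7% of all tested genes, and a median of -0.07, with Prodh, proline dehydrogenase, at -0.40 and Hal, histidine ammonia-lyase, at -0.35. Cytochrome P450 genes had 11 of 28 positive and a median of -0.01; the receptor gene Nr1i3 differed by 0.40. Gstt3, a glutathione transferase, had 9.54 and 9.76 in LFD+As pools, against 10.37 and 10.15 in LFD pools (difference -0.61, adjusted p = 0.269).

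Clock genes went both ways, and time of day was not given in the sources used here. Nr1d1, the repressor REV-ERB alpha, had 9.44 and 10.64 in LFD+As pools, against 10.84 and 10.89 in LFD pools, a difference of -0.82 (adjusted p = 0.935). Pool 1 of LFD+As alone was far lower. Nfil3, which Nr1d1 represses, differed by 0.68, Cry1 by 0.42 and Bhlhe40 by -0.53 (adjusted p = 0.707 each). Of 17 tested clock genes 10 were positive, 4 had pools wholly higher and 5 wholly lower, beside 12.7% and 15.8% of all tested genes.

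Growth and turnover lists were as follows. Of 24 tested genes on the list of immediate early and growth factor response, 17 were negative and the median was -0.07. Phlda1 and the receptor gene Gpr146 were the 2 called lower, beside 0.0418% of all tested genes, and Klf10 differed by -0.42. Members of this list were chosen with earlier results of these data known, so the 2 calls are a description. Nab2, a corepressor of the early growth response factors, had 9.57 and 9.61 in LFD+As pools, against 10.28 and 10.12 in LFD pools (difference -0.61, adjusted p = 0.267). Ribosomal protein genes had 40 of 45 positive, 24 with pools wholly higher, beside 12.7% of all tested genes. Their median was 0.12, with Rplp2 at 0.45 (adjusted p = 0.469). Many ribosomal protein genes have near-identical copies, so these signals may be shared. Proteasome subunits had 33 of 36 positive and a median of 0.09. Pools of 8 lay wholly higher and of 1 wholly lower, beside 12.7% and 15.8% of all tested genes. The proteasome median was 0.0071 without LFD+As pool 1 and 0.22 without LFD+As pool 2. Cell cycle genes had 16 of 20 positive and a median of 0.06, with the cyclin gene Ccnb2 at 0.38, and p53 targets had 8 of 21 positive, with the death receptor gene Fas at 0.39.

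Markers of other cells had no called gene. Of 18 tested macrophage markers 7 were positive and 11 negative (median -0.03), with Cx3cr1 at 0.27, Cd68 at 0.14 and Clec4f at -0.20. Of 16 endothelial markers 4 were positive (median -0.07), with Tek at -0.24, and their signals summed to 12100 and 13440 in LFD+As pools, against 14350 and 12640 in LFD pools. Exocrine pancreas markers, which a piece of pancreas in a liver sample would raise, summed to 1273 and 1155 in LFD+As pools, against 1260 and 1424 in LFD pools. Only 4 of the 11 measured pancreas markers passed the filter on signal, so these sums rest on mostly dim members. Of the pancreas markers Cela1 differed by -0.32. Of 3 tested erythroid markers none was positive, with Slc4a1, the red cell anion exchanger, at -0.25.

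Arsenite on the high-fat diet gives a second comparison that shares no array with LFD+As against LFD. In HFD+As against HFD, 45 genes rose (0.376%) and 389 fell (3.25%), and the median difference was -0.13 over all tested genes. Of the 8 genes called on the low-fat diet, 6 had the same sign there and 1, Socs2, was also called; 4 of the 6 were lower on both diets. Since 27.66% of all tested genes were positive in HFD+As against HFD, a shared negative sign was the more frequent one: of genes at an unadjusted p under 0.05 on the low-fat diet, 84.57% of the 188 lower ones and 29.58% of the 213 higher ones kept their sign. Socs2 had 8.69 and 8.47 in HFD+As pools, against 9.45 and 9.19 in HFD pools, a difference of -0.74 (adjusted p = 0.0481), beside -2.04 on the low-fat diet. Both HFD+As pools were below both HFD pools. Fabp2 differed by 0.45 there (adjusted p = 0.0742) and Retsat rose by 0.67 (adjusted p = 0.0307). Across the 11963 genes the differences of the diets had Pearson's r = 0.035 and Spearman's rho = 0.001, given as a description, since genes are not independent replicates. The high-fat counts depended on scaling and on single pools: 434 calls became 28 after quantile normalization, 40 with a trend on gene span removed, 24 without HFD+As pool 1 and 25 without HFD pool 1.

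The direction of the acute phase genes was not shared between diets, though no gene passed the test of the difference between diets. Saa1 had 9.07 and 8.88 in HFD+As pools, against 10.08 and 10.48 in HFD pools, a difference of -1.30 (adjusted p = 0.169), beside 3.09 on the low-fat diet. The serum amyloid A list had a median of -0.63 on the high-fat diet, with 8 of 8 negative, beside 1.11 on the low-fat diet. On the high-fat diet 27.66% of all tested genes were positive, and 1 member of the list was called lower, beside 3.25% of all tested genes. Interferon-stimulated genes were lower on both diets: their median was -0.34 on the high-fat diet, with 28 of 29 negative, where the median of all genes was itself -0.13. Fatty acid synthesis had a median of -0.74 there with 24 of 24 negative and 14 called lower, beside 3.25% of all tested genes. Chaperones of the endoplasmic reticulum had a median of -0.05 there.

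The difference between the arsenite effects of the 2 diets was tested in the same fit. No gene passed (0 of 11963, 0.0%), and 1659 had an unadjusted p under 0.05. The smallest adjusted p was 0.0591, reached by Lcn2, with a difference between effects of -3.22, and by Lrg1, with -1.27. Other fits called 6, 12 and 7 genes with a stricter filter, an intensity trend and robust moderation. Without LFD+As pool 2 the count was 23. So a gene called on one diet and not on the other is not shown to differ between them.

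**Figure D5:**
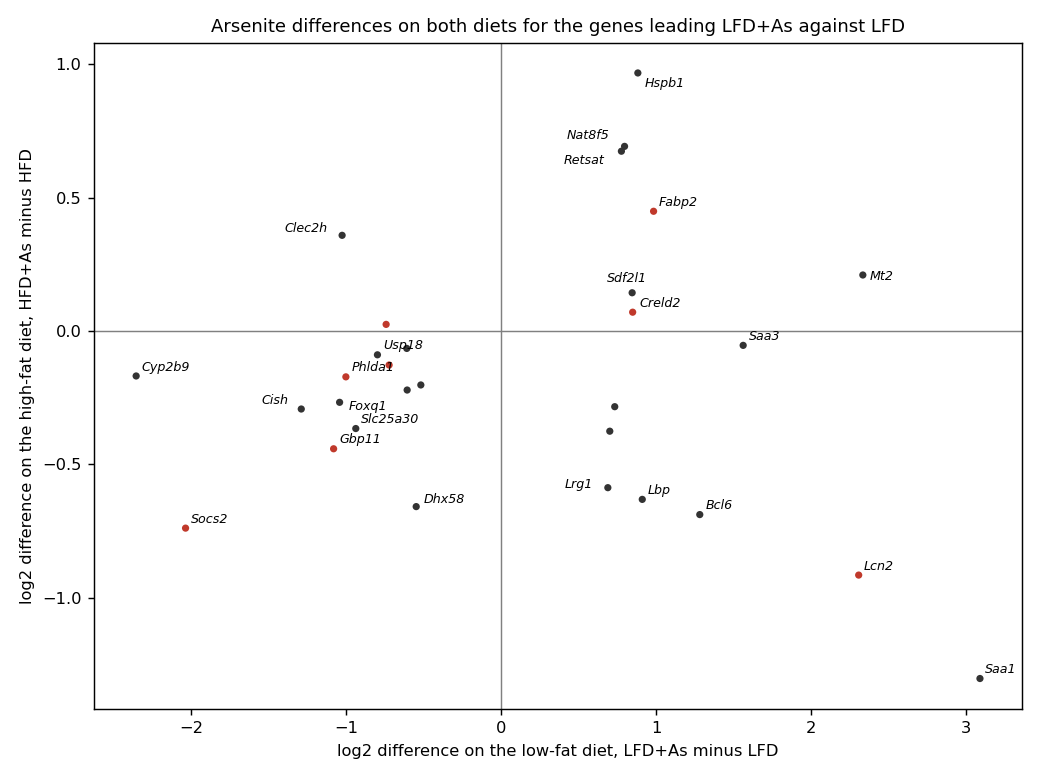
Log2 difference of HFD+As minus HFD (vertical) against that of LFD+As minus LFD (horizontal) for the called genes (red) and for up to 15 genes in each direction with the smallest p among those whose pools did not overlap (black). Socs2 is negative on both diets (-2.04 and -0.74), while Lcn2 and Saa1 are positive on the low-fat diet and negative on the high-fat diet.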

How the data were processed

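The deposited table holds log2 signals per transcript cluster for 8 Affymetrix Mouse Gene 1.0 ST arrays; Expression Console 1.0 is the only program that the submitters' processing notes name. Background correction and normalization are not given in the sources used here, and no detection calls were used, so whether a dim signal lies above background cannot be said. Precision is limited by the number of arrays. The platform annotation lists 23410 of 35556 clusters: 21789 with 1 gene symbol, 1621 with several, and 12146 clusters have none. Of those with 1 symbol, 21698 matched RefSeq by Entrez ID and 0 symbols changed. The brightest cluster stood for a gene, and the 60% of genes with the highest means (above 6.975) were tested.

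Group means of all 8 arrays were fitted in 1 model with limma 3.58.1 in R 4.3.3 (4 residual and 9.318 prior degrees of freedom, median SE 0.127), with Benjamini-Hochberg adjustment over 11963 genes and a threshold of 0.05; the fit was tested on simulated data. Tables and figures used Python 3.11.15, pandas 2.3.3 and matplotlib 3.10.9. Intervals are 95% intervals of the fit. Clusters without a single symbol, 5860 of them, were tested apart: 0 were called with limma and 174 had an unadjusted p under 0.05. Named genes are the called ones, up to 15 per direction with the smallest p among genes whose pools did not overlap, up to 4 tested members of each list with the smallest p, and 12 fixed genes (Mt1, Mt2, Hmox1, Nqo1, As3mt, Igf1, Cish, Saa1, Srebf1, Fasn, Pck1 and Cyp7a1); Xbp1, Ern1, Acot2 and Mt3 were added after their values were seen. The 43 lists hold 1013 genes, 790 of them tested. Members and lists were chosen with earlier results of these data known. Promoters are RefSeq's, GRCm38.p6, from 250 bases before to 50 after the start. Those printed were picked because they hold matches. Of others searched, Mt1, Dnajb9, Rsad2, Ifit3, Hsph1 and Bcl6 also held the motif sought. Gpr146 held the STAT motif in 1 promoter and not in its others. Socs2, Gbp11, Usp18, Phlda1, Gpcpd1, Dhx58 and Manf had no promoter sequence to search. Dnajb1 held no heat shock motif, Fabp2 and Onecut1 no STAT motif, and Lcn2 and Saa1 no NF-kB motif (GGGANTTTC). Alternatives covered the arrays fitted, filter, normalization, variance moderation, choice of cluster, gene span, replicate number and each array left out.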

Additional observations from a re-analysis of the deposited data

How the results depend on the processing

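With 8 genes called in LFD+As against LFD, 3 higher and 5 lower, the fit on the 4 LFD arrays alone called 18 (9 and 9), no filter on dim genes called 1 (0 and 1, with 561 at an unadjusted p under 0.05), quantile normalization 4 (1 and 3) and an intensity trend 13 (6 higher). Leaving out single arrays gave 0 to 26 calls, 0 to 13 higher and 0 to 13 lower. The replicate numbers mark sets of mice drawn at random within a group and do not pair the samples; same-numbered deviations correlated at -0.212 between LFD+As and LFD. With the number as a replicate block, 11 genes were called, 5 of them higher, and all 8 genes were among them. The difference between the diets' arsenite effects had 0 calls, against 6 with the 40% filter, 12 with an intensity trend, 7 with robust moderation, 0 with the replicate block and 0 to 23 without single arrays. HFD+As against HFD had 434 calls, against 29 with no filter, 28 after quantile normalization, 729 with robust moderation, 40 with the span trend removed, 230 with the replicate block and 24 to 1121 without single arrays. Leaving out arrays moved list medians: serum amyloid A and related genes 0.58 to 1.43, other acute phase proteins 0.092 to 0.249, endoplasmic reticulum chaperones 0.21 to 0.40, heat shock 0.10 to 0.31, metallothioneins and zinc 0.07 to 0.21, growth hormone -0.12 to -0.05, antiviral genes -0.34 to -0.17, GTPases -0.42 to -0.20, fatty acid synthesis -0.36 to -0.04 and oxidation 0.10 to 0.23. Signs reversed for Cyp7a1 (-0.23) and Nqo1 (-0.09) without LFD+As replicate 1 and for Nqo1 (-0.21) without LFD replicate 2; over all arrays left out singly, Cyp7a1 ran from -0.23 to 0.42 and Nqo1 from -0.21 to 0.41. Mt3 also reversed, to 0.0701 without LFD replicate 2, within a range of -0.31 to 0.0701. The cause was not tested, except that fits with fewer arrays have fewer degrees of freedom. Under the 40% filter no median of the neutrophil and exocrine pancreas markers could be given.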
